A study of Mus musculus with 2 samples.

Results

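Granzymes C to G (Gzmc, Gzmd, Gzme, Gzmf and Gzmg) were followed through single-cell libraries of natural killer (NK) cells from mouse tumors. The 5 genes were chosen by name, with earlier results of these data known, out of 27998 gene symbols in both count tables. Their rows were read in every cell that had 500 or more detected genes and no more than 10% of mitochondrial counts. That filter left 3067 cells of the KO library and 3555 of the WT library. The study gave mice a subcutaneous injection of RMA-S cells, a mouse lymphoma line that shows little MHC class I on its surface, and collected the tumors 2 weeks later. Cells sorted from the tumors as CD3ε-NK1.1+ went into 10x Genomics Chromium 3′ libraries. These count each transcript once, by a unique molecular identifier (UMI), from a short read of its 3′ end. The KO library came from mice labelled Hif1a KO in NK cells (NK-Hif1a-/-), and the WT library came from wildtype mice. Hif1a encodes the oxygen-regulated subunit of the transcription factor HIF-1. The labels do not give the Cre line, the deleted part of the gene, the age of the mice, or how many mice or tumors entered either library.

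Granzymes are serine proteases that cytotoxic lymphocytes store in granules and pass into target cells with the help of perforin. Granzymes A and B are abundant in mouse NK cells, and their part in killing is well described. Granzymes C to G are encoded beside granzyme B in rodents, are less well understood, and are known from strongly stimulated T and NK cells and from NK cells of the pregnant uterus. Each is made as an inactive precursor that cathepsin C trims, and serglycin holds the mature enzymes in the granule.

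There was 1 library per genotype, so the differences have no replicate check and no test was made. Intervals are exact 95% intervals for counting error only. They assume independent UMIs and are therefore too narrow for genes whose UMIs come from few cells. The filtered KO library held 13222535 UMIs with a median of 3793 per cell, and the WT library 19462712 with a median of 4440. The tables shared 19 cell barcodes. Hif1a itself stood at 60.5 CPM (UMIs per 1e6 UMIs of the cells used) in KO and 58.2 CPM in WT cells. A 3′ tag can lie outside a deleted part, so this level does not check the genotype labels.

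All 5 genes lie on the minus strand of chromosome 14 within 117 kb (GENCODE M21, GRCm38, the assembly also called mm10). In order of coordinate they are Gzme (56117626 to 56120625), Gzmd (56129556 to 56132608), Gzmg (56156582 to 56159579), Gzmf (56205263 to 56211417) and Gzmc (56231441 to 56234656). Ctsg, the gene of the neutrophil protease cathepsin G, lies before Gzme. Gzmn lies between Gzmg and Gzmf, and Gzmb follows Gzmc. The genes are close copies. Gzmd and Gzme transcripts were 93.4% identical, and Gzmc was the most distant, at 71.6 to 72.7% identity with the other 4. A 3′ tag cannot always tell close copies apart. In the last 400 bases of the transcript, the share of 50-base words also found in Gzmb, Gzmn or another of the 5 was 0% for Gzmc. It was 13.1% for Gzmd, 9.97% for Gzme, 9.12% for Gzmf and 17.9% for Gzmg. How tags that match several of these genes were counted is not given in the sources used here, so the split among Gzmd to Gzmg is uncertain to that extent.

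The promoters are shown because they are near copies too, 83.8 to 93.7% identical over windows of 300 bases. The windows run from 250 bases before to 50 after each gene's start and come from RefSeq on GRCm38.p6. All 5 genes matched that table. In the stretches printed here, 5′ to 3′ along the gene's own strand, capitals mark AACCACA, the core that RUNX factors bind, and the 8 bases aligned with the cAMP response element (CRE).
Gzmc, chr14:56234668-56234832, minus strand: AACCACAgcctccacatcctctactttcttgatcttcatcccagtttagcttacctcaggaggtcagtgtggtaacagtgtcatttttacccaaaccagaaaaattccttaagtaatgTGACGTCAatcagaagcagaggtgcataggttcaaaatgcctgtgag
Gzmd, chr14:56132608-56132768, minus strand: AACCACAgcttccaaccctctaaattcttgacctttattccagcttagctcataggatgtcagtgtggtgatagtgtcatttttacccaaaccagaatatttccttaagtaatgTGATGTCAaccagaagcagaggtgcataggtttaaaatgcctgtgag
Gzme, chr14:56120641-56120801, minus strand: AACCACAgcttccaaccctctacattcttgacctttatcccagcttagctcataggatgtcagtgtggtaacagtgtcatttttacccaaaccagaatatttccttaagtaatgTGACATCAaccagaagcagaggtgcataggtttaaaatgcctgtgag
Gzmf, chr14:56211443-56211603, minus strand: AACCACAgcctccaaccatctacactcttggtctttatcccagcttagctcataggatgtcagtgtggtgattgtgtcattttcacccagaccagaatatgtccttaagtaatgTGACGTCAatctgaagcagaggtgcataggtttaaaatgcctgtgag
Gzmg, chr14:56159610-56159770, minus strand: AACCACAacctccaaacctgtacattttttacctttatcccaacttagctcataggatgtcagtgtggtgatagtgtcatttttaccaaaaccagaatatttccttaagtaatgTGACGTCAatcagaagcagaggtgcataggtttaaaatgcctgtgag
The 3 genes Gzmc, Gzmf and Gzmg held the full CRE letters TGACGTCA, which occurred on either strand in 1.88% of 27025 promoters of the same length. Counting positions from 1 at the 5′ end of TGACGTCA, Gzmd had the change C4T and Gzme the change G5A. AACCACA was in all 5, against 5.37% of all promoters, and Gzmb held it on the opposite strand. The other letters searched on both strands were TGANTCA (AP-1, 7.93% of promoters), TTCNNNGAA (STAT5, 8.47%), GGAAAA (NFAT, 23.6%) and ACGTG (HIF, 19.7%). These were in none of the 5 windows, and no searched motif is contained in another. A match is a run of letters and not a shown binding site, and the lack of one holds for these windows only.

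Gzmc was the most abundant of the 5 in both libraries, and every one of them was lower in the KO library. Gzmc stood at 262 CPM (3461 UMIs) in KO and 1004 CPM (19542 UMIs) in WT cells. Gzmd stood at 70.3 CPM (930 UMIs) in KO and 323 CPM (6279) in WT cells. Gzme, the scarcest, stood at 23.4 CPM (309 UMIs) and 142 CPM (2756). These 3 kept the order Gzmc, Gzmd, Gzme in both libraries. Gzmf stood at 109 CPM (1444 UMIs) in KO and 314 CPM (6116) in WT cells. Gzmg stood at 54.2 CPM (717 UMIs) in KO and 269 CPM (5243) in WT cells. Gzmf lay above Gzmd in the KO library and next to it in the WT library. With 3′ tags these levels do not depend on transcript length.

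The log2 ratio (KO over WT, after adding 1 CPM to each) was -1.94 (-1.99 to -1.89) for Gzmc and -2.18 (-2.30 to -2.10) for Gzmd. It was -2.55 (-2.77 to -2.43) for Gzme, -1.52 (-1.61 to -1.44) for Gzmf and -2.29 (-2.43 to -2.20) for Gzmg. Summed, the 5 genes had 519 CPM in KO and 2052 CPM in WT cells, a log2 ratio of -1.98 (-2.02 to -1.95), or 3.95-fold lower. All 5 passed a 2-fold difference, as did 0.932% of 8155 genes with at least 200 UMIs. The choice of the 5 used this contrast, so nothing is read from that count. The intervals are narrow only because many UMIs came from few cells, as follows.

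The UMIs of all 5 genes were gathered in very few cells. Of the KO library's summed UMIs, the 10 cells with the most held 71.7%, and of the WT library's the 10 held 51.6%. Concentration was least for Gzmc, at 60.3% in KO and 45.4% in WT cells. It was stronger for Gzmd (88.8% and 64.6%), Gzme (90.6% and 58.9%), Gzmf (84.5% and 76.5%) and Gzmg (90.5% and 68.5%). The highest cell of the KO library had 1860 summed UMIs and that of the WT library 3868.

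Cells were sorted by their summed UMIs of the 5 genes into 4 ranges, which are ranges of a count and not cell types. In the KO library 2068 cells had 0, 966 had 1 to 9, 27 had 10 to 99 and 6 had 100 or more. In the WT library 1078 cells had 0, 2384 had 1 to 9, 50 had 10 to 99 and 43 had 100 or more. Cells with at least 10 are called rich here. They made up 1.08% (0.742 to 1.51) of the KO and 2.62% (2.12 to 3.20) of the WT cells, yet carried 80.7% and 89.3% of the summed UMIs. Near that limit, 9 KO and 21 WT cells had between 8 and 12 UMIs, so its exact place sets the class of few cells. Rich cells were deep. Their median total was 10294 UMIs in KO and 14189 in WT cells, against 3781.5 and 4401 in cells under 10. With every cell thinned to 2500 UMIs, which left out 418 KO and 92 WT cells as too shallow, 0.491% of KO and 1.82% of WT cells were rich.

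**Figure D1:**
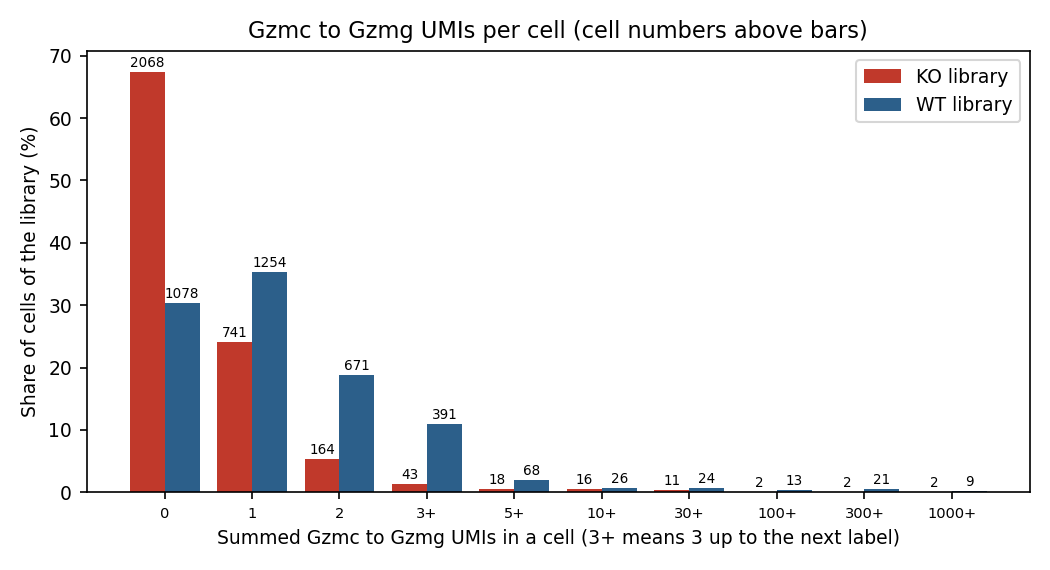
Share of cells (y axis, %) by summed Gzmc to Gzmg UMIs (x axis) in the KO (red) and WT (blue) libraries, with cell numbers above the bars. Most cells have 0 to 2 UMIs in both libraries, and 6 KO and 43 WT cells form a tail at 100 or more.

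Below the tail, most cells that carried any of the 5 genes carried a single UMI. At least 1 UMI was present in 32.6% of KO cells (30.9 to 34.3) and 69.7% of WT cells (68.1 to 71.2), and in 22.5% and 48.7% after thinning. Of these positive cells, 74.2% in KO and 50.6% in WT cells had exactly 1. By gene, the share of cells with a UMI was 22.7% in KO and 45.7% in WT cells for Gzmc. It was 3.68% and 18.1% for Gzmd, 1.27% and 7.96% for Gzme, 7.56% and 18.3% for Gzmf, and 2.54% and 15.4% for Gzmg.

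Within each library this low level was similar across most clusters, T-like cells included. When cells of both libraries were clustered without the 5 genes, 8 of 11 clusters, numbered 0 to 6 and 9, held between 81.0 and 111 CPM of the summed genes in the KO library. In the WT library they held between 192 and 310 CPM. One of them, cluster 9, was led by Cd3e, Cd3d and Cd3g and named T-like. In it 31.4% (20.9 to 43.6) of KO and 64.7% (55.2 to 73.3) of WT cells had a UMI, with median totals of 4560.5 and 4731 UMIs. In the other 7, all NK-like, the share ran from 24.0 to 38.0% in KO and from 61.5 to 72% in WT cells. Since these shares lie on both sides of that in T-like cells, no expression is read here from a single UMI in a cell. T-like cells may not lack the genes altogether, since Ncr1, the NK receptor NKp46, was detected in 31.4% of them in KO and 31.9% in WT cells.

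In the WT library the low level carried the 5 genes in about the proportions of the rich cells. Outside clusters 7, 8 and 10, Gzmc made up 49.4% of the 3509 summed UMIs, Gzmd 15.3%, Gzme 5.70%, Gzmf 16.5% and Gzmg 13.2%. In WT rich cells the shares were 48.7%, 15.8%, 7.04%, 15.3% and 13.2%. In the KO library the proportions differed. Outside those clusters Gzmc made up 65.3% of 1152 UMIs, Gzmd 8.42%, Gzme 2.0%, Gzmf 18.9% and Gzmg 5.38%, against 46.6%, 14.9%, 5.0%, 21.8% and 11.7% in KO rich cells. Among KO rich cells the 2 highest alone held much of Gzmd and Gzmg, with 464 and 281 of 930 Gzmd UMIs and 538 and 84 of 717 Gzmg UMIs. What the low level arises from was not tested.

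Rich cells lay almost wholly in 3 clusters, which held 32 of 33 KO and 90 of 93 WT rich cells. Cluster 7 was led by Ifitm1, Spp1, Ifitm2, Lyz2, Mcpt8, AA467197, Ifitm3, Ly6a, S100a8 and Gm7676. It was left unnamed, because these 10 genes held a myeloid marker (Lyz2), a basophil marker (Mcpt8) and a neutrophil marker (S100a8). No cluster had an NK marker among its top 10 genes. NK markers had a UMI in 87.7% of cluster 7 cells on average, against 82.1 to 90.7% in the NK-like clusters. Cluster 7 cells were deeper, with a median of 7631 UMIs against 3457 to 4596 in clusters 0 to 6, which raises detection. By level Klrb1c stood at 463 CPM in KO and 430 CPM in WT cells of cluster 7, against 854 and 833 CPM in clusters 0 to 6. The other NK markers were lower there too, except Prf1 in both libraries and Gzma in the KO library. Ncr1 had a UMI in 77.2% of the KO and 86.6% of the WT cells of cluster 7. This cluster held 5002 CPM of the summed genes in 114 KO cells and 12134 CPM in 269 WT cells. Even there rich cells were the minority, at 17.5% (11.1 to 25.8) of KO and 23.0% (18.2 to 28.5) of WT cells. The remaining cells of cluster 7 had 119 CPM in KO and 262 CPM in WT cells. In the 8 clusters numbered 0 to 6 and 9, cells under 10 UMIs had at most 109.9 CPM in KO and 248.6 CPM in WT cells. Leaving out cells at 10 or more holds the remainder low in any cluster.

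Cluster 8 was named ILC-like, after innate lymphoid cells, from Tmem176b, Tmem176a, Cxcr6, Rora and Il7r among its top genes, with Cd74 and H2-Aa of the MHC class II pathway among the others. It held 1016 CPM in 96 KO cells and 2294 CPM in 115 WT cells, and nearly all of it was Gzmc. Gzmc accounted for 521 of 555 UMIs in KO and 1407 of 1498 in WT cells. Rich cells made up 10.4% (5.11 to 18.3) of KO and 15.7% (9.55 to 23.6) of WT cells of that cluster. Its remaining cells stood further above those 8 clusters, at 199 CPM in KO and 432 CPM in WT cells.

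Cluster 10 was led by cell cycle genes such as Rrm2, Birc5, Nusap1 and Mki67. It had 1521 CPM in 20 KO cells and 656 CPM in 95 WT cells, the only cluster of the 11 in which the summed level was higher in the KO library. A single KO cell with 315 of the cluster's 380 KO UMIs gave that level. Its rich cells were 2 KO and 10 WT cells, again mostly through Gzmc, at 372 of 380 and 722 of 845 UMIs. Several of the 11 clusters came mostly from 1 library (cluster 0 had 1101 KO and 96 WT cells, cluster 4 had 71 and 660), so they may mark the library rather than a state.

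**Figure D2:**
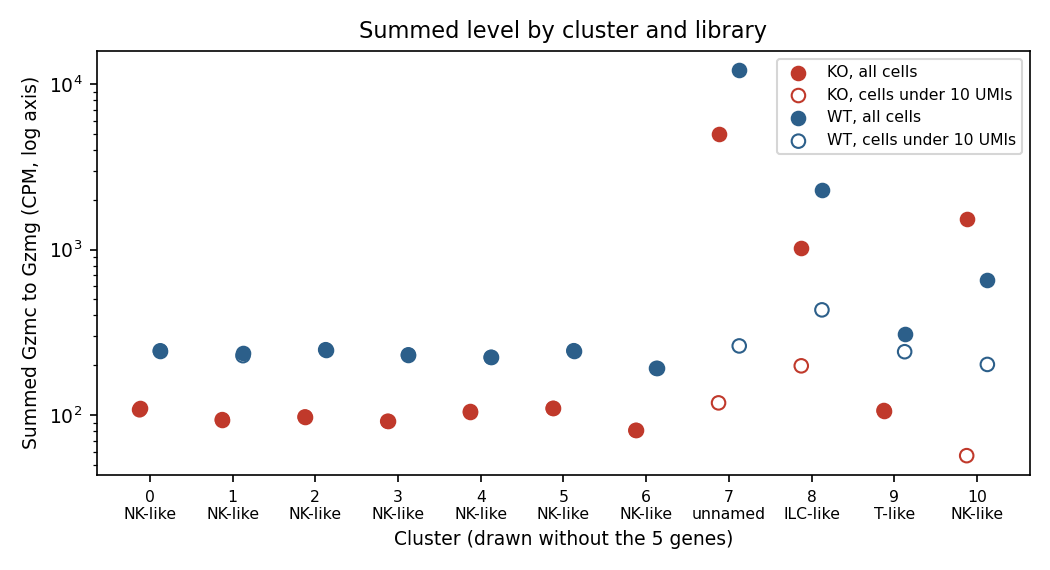
Summed Gzmc to Gzmg level (y axis, CPM, log axis) in each cluster (x axis) for KO (red) and WT (blue), over all cells (filled) and over cells under 10 summed UMIs (open; hidden behind the filled point where equal). Clusters 7, 8 and 10 stand out when all cells are used, and in cluster 7 the open points fall back to 119 and 262 CPM.

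The difference between the libraries is given here in 3 components. Rich cells were fewer in the KO library, 33 of 3067 against 93 of 3555. Cluster 7, which held most rich cells, was itself smaller in the KO library, at 114 cells against 269. Its rich share was 17.5% (11.1 to 25.8) in KO and 23.0% (18.2 to 28.5) in WT cells. Differences in cluster size were not separated from the 3 components. Within rich cells the summed level was 14029 CPM in KO and 22596 CPM in WT cells, a log2 ratio of -0.69 (-0.73 to -0.65). In cells under 10 UMIs it was 103 CPM and 240 CPM, a log2 ratio of -1.21 (-1.30 to -1.13).

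The 5 genes did not share these components equally. In rich cells Gzmf hardly differed, at 3059 CPM in KO and 3456 CPM in WT cells, a log2 ratio of -0.18 (-0.27 to -0.09). Gzme, at 702 and 1590 CPM, had the lowest ratio of the 5 there, -1.18 (-1.36 to -1.0). Gzmc, Gzmd and Gzmg lay between, at -0.75, -0.77 and -0.86. In cells under 10 UMIs the order changed. Gzmc there had 68.8 CPM in KO and 122 CPM in WT cells, a ratio of -0.82, and Gzmf a ratio of -0.97. Gzmd (-2.01), Gzme (-2.08) and Gzmg (-2.31) were further apart. Since 4 KO cells supply nearly all KO UMIs of Gzmd to Gzmg in rich cells, the ratios there describe those cells. Without the 10 highest cells of each library the summed ratio was -2.76, among cells with fewer than 3 cell cycle genes it was -0.94, in NK-like clusters, which leave out cluster 7, it was -1.04, and all 15 alternatives kept it below 0.

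Rich cells were divided into 2 groups by a limit set after the values were seen. In 65 of 126 rich cells (22 KO, 43 WT) Gzmd to Gzmg together made up under 10% of the summed UMIs, and these are called Gzmc-only. The other 61 (11 KO, 50 WT) are called broad. The name refers to that share only, since in 12 of the 61 only 1 of the 5 genes had at least 5 UMIs. Near the limit, 6 KO and 17 WT rich cells had a share between 5 and 20%, so their group depends on its exact place. Gzmc-only cells had a median of 33 summed UMIs and broad cells 297. The median total was 9175 UMIs in the former and 18397 in the latter.

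The 2 groups were spread differently over the clusters. In ILC-like cluster 8, 25 of 28 rich cells were Gzmc-only. In cluster 7, 52 were broad and 30 Gzmc-only, and in cluster 10, 5 were broad and 7 Gzmc-only. At 100 UMIs or more, all 35 broad cells (4 KO, 31 WT) lay in cluster 7. The 14 Gzmc-only cells at that level were in cluster 7 (5), cluster 8 (6) and cluster 10 (3). The clearest Gzmc-only cell of the KO library had 172 Gzmc UMIs and none of the other 4 genes in 10719 UMIs.

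Detection of several genes together was counted by range of summed UMIs and not by these groups. All 5 genes had at least 1 UMI in 4 of 33 KO and 31 of 93 WT rich cells, and exactly 1 gene was seen in 16 and 21. Among cells with 1 to 9 UMIs, 854 of 966 in KO and 1508 of 2384 in WT cells showed 1 gene, and 0 and 2 showed all 5. With at least 5 UMIs asked of each gene, all 5 were present in 2 KO and 22 WT cells.

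In the fullest cells these transcripts were a large part of the message. The highest KO cell had 133 Gzmc, 464 Gzmd, 161 Gzme, 564 Gzmf and 538 Gzmg UMIs, or 16.3% of its 11399 UMIs. The next KO cell had 668 Gzmc, 281 Gzmd, 58 Gzme, 391 Gzmf and 84 Gzmg among 19995. The highest WT cell had 1021 Gzmc, 1122 Gzmd, 346 Gzme, 465 Gzmf and 914 Gzmg UMIs among 46203. Gzmc was thus the least of the 5 in the first of these cells and the most in the second. The share reached 10.3% in the WT library, and 3 KO and 13 WT cells had at least 5% of their UMIs from the 5 genes.

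Among the 35 broad cells with at least 100 UMIs, which gene dominated varied from cell to cell. Gzmc was the most abundant of the 5 in 19, Gzmf in 7, Gzmg in 7, Gzmd in 2 and Gzme in none. Gzmc ranged from 7.15 to 88.5% of a cell's summed UMIs, with a median of 40.1%. Gzmf ranged from 0 to 57.5%, with a median of 14%, and Gzmg from 0 to 37.8%, with a median of 8.80%. Gzmd ranged from 1.18 to 36.7% and Gzme from 0.169 to 18.4%. Cells with a high sum and no Gzmf or no Gzmg UMI at all therefore existed beside cells in which either gene led.

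**Figure D3:**
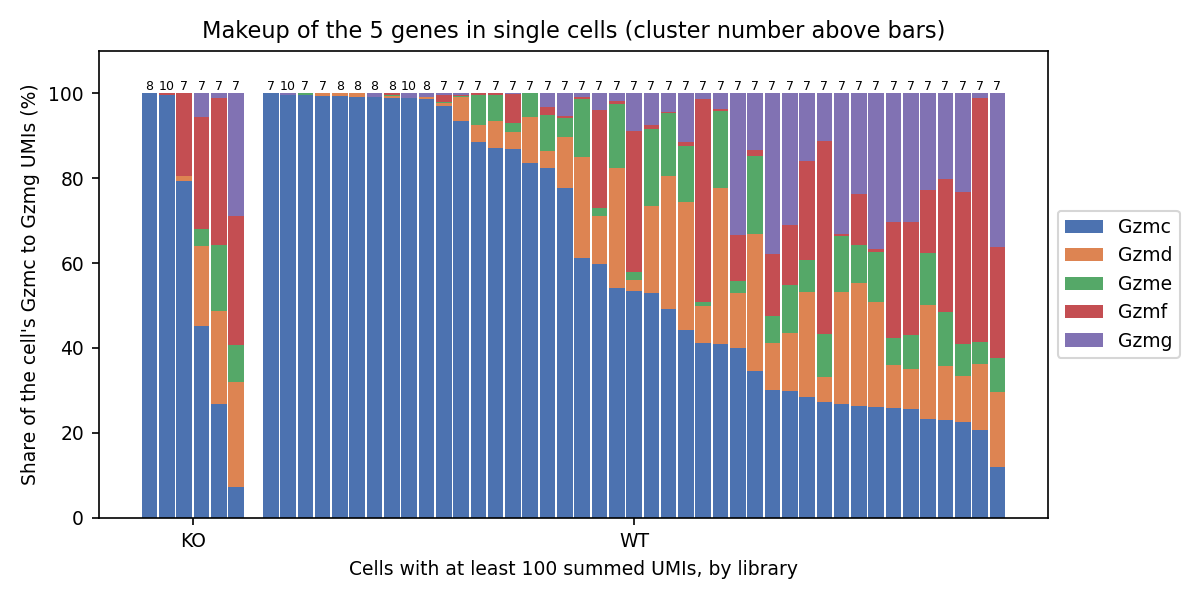
Each bar is 1 of the 49 cells with at least 100 summed UMIs, 6 KO at the left and 43 WT at the right, ordered by Gzmc within a library, and colours give each gene's share of the summed UMIs (y axis, %). Numbers above the bars are clusters, and all 35 broad cells are in cluster 7.

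Gzmd and Gzme kept the closest proportion. In the 31 WT broad cells with at least 100 UMIs, their median ratio was 1.93 and the SD of its log2 was 0.91, against 1.45 to 2.88 for the other 9 pairs. Across these cells Pearson's r of the log2 levels was 0.77 for Gzmd with Gzme, 0.71 for Gzmd with Gzmg, 0.70 for Gzme with Gzmg and 0.61 for Gzmf with Gzmg. It was 0.31 for Gzmd with Gzmf and 0.18 for Gzme with Gzmf. Gzmc had r between 0.19 and 0.31 with each of the others. These values describe 31 cells of 1 library, which share its depth and preparation. Gzmd and Gzme are also neighbours on the chromosome, 8930 bases apart, and the pair closest in sequence, so tags assigned to the wrong copy would raise their likeness. Their part in it was not tested.

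NK markers were detected in most rich cells, though several at lower levels than in cells with 0 UMIs of the 5 genes. Of 126 rich cells, 112 had a UMI of Ncr1 and 109 of Klrb1c, which encodes NK1.1. Of 10 NK markers none was 2-fold higher and 4 were 2-fold lower in rich cells of both libraries, namely Klrb1c (log2 ratio -1.23 in KO and -1.63 in WT cells), Klre1, Klrk1 and Eomes, and the medians were -0.59 and -0.71. Over the 5552 genes with at least 100 UMIs in the compared cells of each library, 2.23% were 2-fold higher and 7.01% lower in both. These markers do not separate the cell types here by detection alone, since Ncr1 and Klrb1c were also found in 77.1 to 88.7% of ILC-like cells, and Klrb1c in 62.9% of KO and 71.6% of WT T-like cells. At least 1 T cell marker was found in 61, and the 7 T cell markers with a row in the tables, 3 of them at 0 in the rich cells of each library, together had 139 CPM in KO and 169 CPM in WT rich cells, against 85.5 and 159 CPM in cells with 0. Cd3e, which the sort was meant to exclude as protein, had a UMI in 0 of 33 KO rich cells, which allows a share of up to 9.09% of cells with a UMI, and in 2 of 93 WT rich cells. Detection is incomplete, as Cd3e had a UMI in 61.4% of KO and 64.7% of WT T-like cells. Cd8a and Cd5 had none in either. Most of the T cell marker UMIs were of Cd3d and Cd3g. Cd3d was found in 21.9% of cluster 7 cells in both libraries, against 92.9% and 97.4% of T-like cells. The part of such transcripts in the results was not tested.

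Neighbouring genes of the locus were found mainly in the same cells. Ctsg had 75 of its 84 WT UMIs in 12 rich cells, and 35 of its 37 KO UMIs in 1 rich cell. Mcpt8, a chymase-like protease gene known from basophils, had 261 of 301 WT UMIs in 28 rich cells and 8 of 10 KO UMIs in 1. Gzmn had 13 of 16 WT UMIs and 6 of 6 KO UMIs in rich cells. The KO counts thus rest on 1 or 2 cells a gene, and Mcpt8 is among the genes that led cluster 7. Other basophil and mast cell markers were at or near 0 in rich cells: 5 of 6 markers had no UMI in KO and 4 of 6 none in WT cells.

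Gzmb, which follows Gzmc on the chromosome, was not limited to those cells. It was present throughout, at 2506 CPM in KO and 2484 CPM in WT cells with 0 UMIs of the 5 genes, and at 5291 and 6393 CPM in rich cells. Over all cells it stood at 2724 CPM in KO and 2794 CPM in WT cells, a log2 ratio of -0.04 (-0.06 to -0.02). Cma1, a chymase gene of the same region, was lower in rich cells, at 104 CPM in KO and 39.3 CPM in WT cells, against 461 and 274 CPM in cells with 0. Mcpt1, Mcpt2, Mcpt4 and Mcpt9 had no UMI in either library, which allows up to 0.227 CPM in KO and 0.154 CPM in WT cells. Cma2 had 1 UMI in KO and 2 UMIs in WT cells.

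The granule genes outside this locus had a median ratio of rich over 0-UMI cells below that of all genes in both libraries. Gzmb, counted with the locus, was 2-fold higher in rich cells of both libraries, with log2 ratios of 1.08 in KO and 1.36 in WT cells. Of 11 measured genes of the list of other granule genes none was 2-fold higher or lower in rich than in 0-UMI cells of both libraries. Of 5552 genes 2.23% were 2-fold higher and 7.01% lower in both, so a list of 11 may well hold none, and nothing is read from that count. Gene counts in this comparison are of genes with at least 100 UMIs over those cells in each library. The list's median log2 ratio was -0.49 in KO and -0.50 in WT cells, and that of all genes was -0.16 and -0.17. Gzma, the most abundant granzyme, had 15501 CPM in KO and 12337 CPM in WT rich cells, against 12794 and 12299 CPM in cells with 0. Prf1, which encodes perforin, had 299 and 438 CPM in rich cells, against 194 and 275 CPM. Nkg7, a granule membrane protein gene, was lower in rich cells, at 1997 and 2251 CPM against 3493 and 4075 CPM. Gzmk and Gzmm were sparse, and Gzmm had 1 UMI in the rich cells of each library.

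Cell cycle genes were detected more often in rich cells. Of a list of 35 S and G2M genes, cells with at least 3 detected are called cycling here. In the KO library 27.9% of cells with 0 UMIs of the 5 granzymes were cycling, 34.1% with 1 to 9, 63.0% with 10 to 99 and 66.7% with 100 or more. In the WT library the shares were 35.9%, 44.0%, 74.0% and 83.7%. Over rich cells together the share was 63.6% (45.1 to 79.6) in KO and 78.5% (68.8 to 86.3) in WT cells. Deeper cells show more genes, and rich cells were the deepest.

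At equal depth the gap narrowed but did not close. With cells thinned to 2500 UMIs, 35.5% (19.2 to 54.6) of 31 KO rich cells and 40.2% (30.1 to 51.0) of 92 WT rich cells were cycling. In cells under 10 UMIs the thinned shares were 13.3% (12 to 14.7) and 17.9% (16.6 to 19.2). At 1 to 9 UMIs the gap was small or absent: the thinned share was 13.7% at 0 and 12.5% at 1 to 9 UMIs in the KO library, and 15.5% and 18.9% in the WT library. By this measure 11 of 31 KO and 37 of 92 WT rich cells were cycling. Thinning takes cycle genes away from cells that have them, so the thinned shares compare ranges and do not count the cells that cycle. The ranges of granzyme UMIs in this comparison came from the full counts.

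Summed over cells, the cycle genes were higher in rich cells. The 35 genes summed to 693 CPM in KO and 776 CPM in WT cells with 0, and to 1819 and 2229 CPM in rich cells. The 17 genes counted as S-phase, most of which serve DNA synthesis, went from 500 to 1452 CPM in KO and from 554 to 1348 CPM in WT cells. Stmn1 was counted among them, though it does not serve DNA synthesis. It went from 101 to 256 CPM in KO and from 113 to 344 CPM in WT cells. The 18 G2M genes, which serve mitosis, went from 192 to 367 CPM in KO and from 223 to 880 CPM in WT cells.

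The typical cell differed less than these sums. The median per cell was 5.06 cycle gene UMIs per 10000 in KO cells with 0, 6.62 with 10 to 99 and 3.65 with 100 or more. In WT cells the medians were 5.46, 7.29 and 7.94. Single rich cells reached 58.9 in KO and 92.6 in WT cells, so a minority of cells carried much of the summed rise.

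The mitotic part was not spread evenly over the ranges, and its order differed between the libraries. In KO cells G2M genes stood at 328 CPM with 10 to 99 UMIs and 511 CPM in the 6 cells with 100 or more. Of those 6 KO cells 1 lay in the cycling cluster 10. Their median was 3.65 cycle gene UMIs per 10000, and the highest had 46.8. In WT cells with 10 to 99 UMIs G2M genes reached 1408 CPM, and in those with 100 or more 513 CPM. S-phase genes stood at 1712 and 1095 CPM in the same WT cells. Of the 10 WT rich cells in cluster 10, 2 had 100 or more UMIs. Few cells can thus set the order of the ranges in either library. Of 15 measured genes of the list 11 were 2-fold higher in rich cells of both libraries and none was lower, among them Tyms (log2 ratio 2.39 in KO and 1.82 in WT cells), Rrm2 (1.97 and 1.70), Mcm5 (2.15 and 1.71) and Top2a (1.1 and 1.13). Over all 5552 genes compared, 2.23% were 2-fold higher and 7.01% lower in both. Mki67 had a UMI in 6 of 33 KO and 26 of 93 WT rich cells. Most UMIs of the 5 granzymes nonetheless lay outside the cycling cluster 10, which held 5.54% of them in KO and 2.12% in WT cells.

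**Figure D4:**
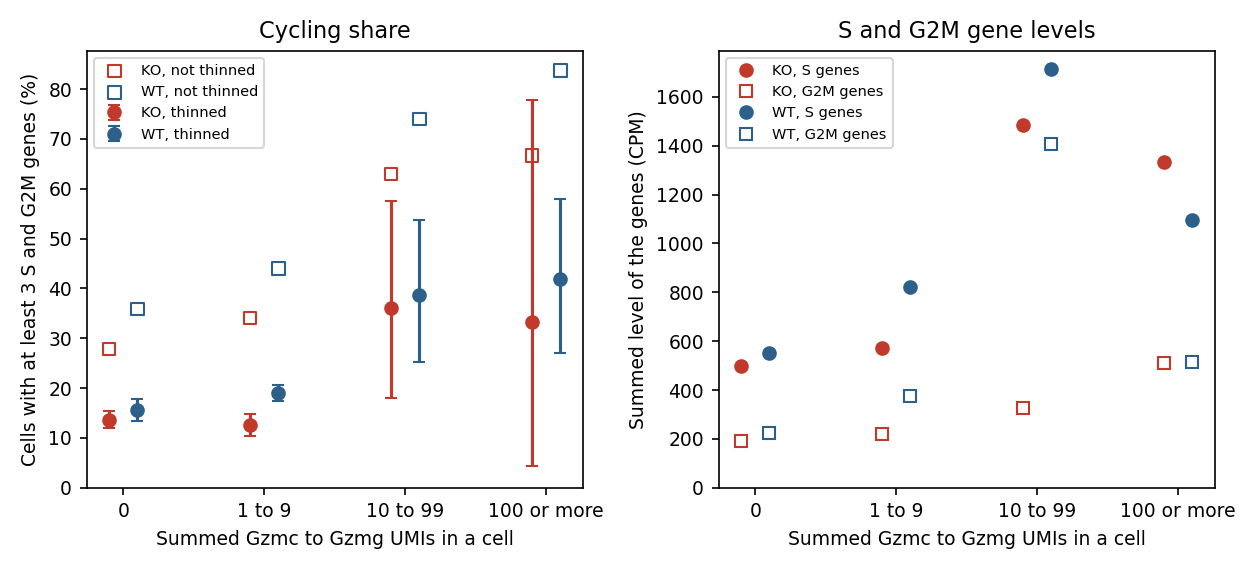
Left, share of cells with at least 3 S and G2M genes (y axis, %) by summed Gzmc to Gzmg UMIs (x axis), after thinning to 2500 UMIs (circles, with exact 95% intervals) and before (squares); right, summed S (circles) and G2M (open squares) gene levels in CPM. KO is red and WT blue, and thinned shares at 10 UMIs or more lie at 33.3 to 41.9% against 12.5 to 18.9% below.

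The 10 genes with the highest ratios of rich over 0-UMI cells included 2 that serve the cell cycle, 2810417H13Rik and Cks1b. Spp1, the gene of the secreted protein osteopontin, had 2549 CPM in KO rich cells and 73.7 CPM in KO cells with 0, and 3214 and 118 CPM in the WT library. The log2 ratio was 5.09 in KO and 4.75 in WT cells, although 1 cell held 47.1% of the UMIs of KO rich cells. Ifitm2, an interferon-induced transmembrane protein gene, had ratios of 4.60 and 5.97, and AA467197 4.22 and 5.77. A single cell held 40.2% of the Ifitm2 and 40% of the AA467197 UMIs of KO rich cells. Ly6a, which encodes Sca-1, had 4.26 and 3.88, and S100a4, a calcium-binding protein gene, 2.96 and 3.46. Spp1, Ifitm2, AA467197 and Ly6a also led cluster 7, which held 82 of 126 rich cells. Cells with 0 come from all clusters, so these ratios do not compare rich cells with the rest of cluster 7. Lag3, an inhibitory receptor gene, was present in 87.9% of KO and 71.0% of WT rich cells, with ratios of 3.24 and 2.30. Ccdc184 (4.60 and 3.07), 2810417H13Rik (2.64 and 2.90), Cks1b (2.55 and 2.71) and Cd74 (2.21 and 2.24) completed the 10 highest.

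The 2 groups of rich cells differed in some of these genes. In the WT library Ifitm2 had a log2 ratio of 6.42 in broad and 3.98 in Gzmc-only cells. Ccdc184 had 1.33 in broad and 4.36 in Gzmc-only cells, and Cd74 0.68 and 3.47. Ccdc184 and Cd74 are among the top genes of the ILC-like cluster that holds many Gzmc-only cells. In the KO library the ratios of broad and Gzmc-only cells were 4.32 and 4.77 for Ccdc184 and 1.69 and 2.49 for Cd74. Xcl1, a chemokine gene of NK cells, had -1.61 in WT broad and 1.74 in WT Gzmc-only cells, and -2.69 and 1.77 in the KO library.

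The genes lowest in rich cells were As3mt, Gm10522, Kcnj8, Klf3, Gm26802, S1pr5, Ccdc146, Fos, Dhrs3 and Klra4. S1pr5, a receptor gene for the exit of mature NK cells from tissue, had 1 UMI in KO and 10 UMIs in WT rich cells, with log2 ratios of -3.90 and -3.08. Klf3, a transcription factor gene, had -3.16 and -3.11. Fos, an AP-1 subunit and immediate-early gene, had -2.79 and -2.70, and Klra4, an Ly49 receptor gene, -2.63 and -2.89.

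Genes of the NK cell maturation list, which holds markers of early and late stages, were mostly lower in rich cells. Of 10 measured members 4 were 2-fold lower in both libraries (Cma1, Itgam, S1pr5 and Zeb2) and 1, Thy1, was higher, with medians of -1.29 and -1.24. Over all 5552 genes compared, 7.01% were 2-fold lower and 2.23% higher in both. Zeb2, a transcription factor of terminal maturation, had log2 ratios of -2.38 and -2.51, and Itgam, which encodes CD11b, -2.59 and -1.84. Thy1, a surface glycoprotein gene, had 1.91 and 2.49. Klrg1, a marker of late maturation, had 0.37 and 1.13. Cd27 and Emb, which mark less mature NK cells, had -0.77 and -1.20, and -0.98 and -1.28.

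Activation genes did not move as 1 group. Over all 5552 genes compared, 2.23% were 2-fold higher and 7.01% lower in rich cells of both libraries. Of 15 measured members of the activation and residency list 3 were 2-fold higher in both libraries, namely Lag3, Ctla4 (2.99 and 1.75) and Tnfrsf9 (1.24 and 1.14), all of them activation-induced receptor genes. Lower in both were the 4 genes Ccl3 (-2.0 and -2.48), Ccl4 (-2.38 and -2.55), Ifng (-1.62 and -1.20) and Eomes (-1.33 and -1.17), that is 2 chemokines, interferon gamma and an NK lineage factor. Of 12 measured genes of the response to IL-2 and IL-15, cytokines that sustain NK cells, none was higher and 5 were lower in both, namely Bcl2, Jak1, Pim1, Socs3 and Stat5b. Il2ra and Socs2 of that list had too few UMIs to be counted, as had Havcr2 of the activation list. Across all cells Pearson's r with the summed level was 0.09 in KO and 0.23 in WT cells for Il2ra, and 0.14 and 0.23 for Havcr2.

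Growth genes had medians above that of all genes, mostly by less than 2-fold. Of 17 measured members 2 were 2-fold higher in both libraries, Gapdh (1.32 and 1.57) and Pgk1 (1.01 and 1.54), both enzymes of glycolysis, and none was lower. Over all 5552 genes compared, 2.23% were 2-fold higher and 7.01% lower in both. The growth list's medians were 0.75 and 0.85. Ldha, lactate dehydrogenase, had 0.91 and 1.25, and Odc1, the first enzyme of polyamine synthesis, 1.23 and 0.96. Rich cells also had more total UMIs, as given above, and the part of depth in these ratios was not tested.

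**Figure D5:**
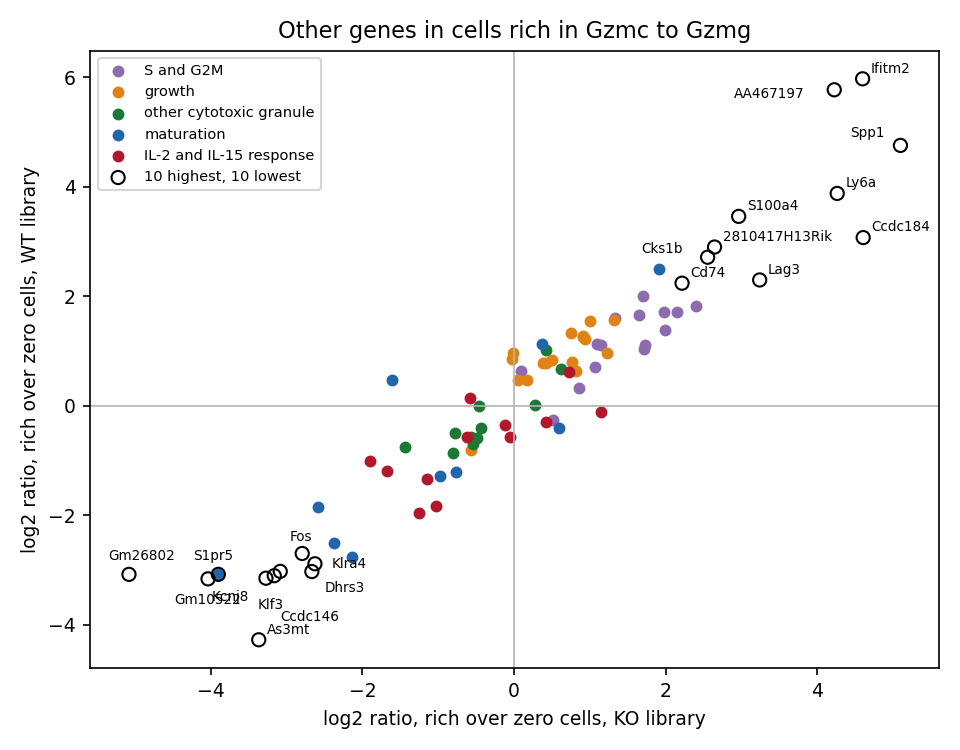
Log2 ratio of rich over 0-UMI cells in the KO (x axis) and WT (y axis) library for the 10 highest and 10 lowest genes (circled, with names) and for measured members of 5 lists (colours). Spp1, Ifitm2, AA467197 and Ly6a lie highest in both libraries, and the other granule genes (green) have medians of -0.49 in KO and -0.50 in WT cells.

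Across all cells no gene followed the summed level closely. By Pearson's r of log-transformed counts per 10000, taking for each of 9667 genes the lower of the values in the 2 libraries, the most alike were Ly6a (0.19), Myo10 (0.18), Ccdc184 (0.18), Ifitm2 (0.17) and Lag3 (0.16). Spp1 (0.15), Epas1 (0.15), AA467197 (0.14), Tspan31 (0.14) and Adam8 (0.14) came next, and Gzmb had 0.05. Among 497 KO and 364 WT cells without any of the 35 cycle genes the order began with AA467197 (0.20), Thy1 (0.18), Tspan31 (0.17), Ly6a (0.14) and Basp1 (0.13). The median over all genes was 0.01 in both libraries over all cells. These cells of 1 library share depth and preparation, counts are sparse, and such weak values are given as a description.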

How the data were processed

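Single-cell 3′ libraries of tumor-infiltrating NK cells were used, 1 labelled Hif1a KO in NK cells and 1 WT. The deposited values are UMI counts, whole numbers by gene symbol and barcode with no normalization, as the files show (3110 KO barcodes with 1464 to 29202 UMIs, 3574 WT barcodes with 2364 to 52557). The submitters' processing notes name Cell Ranger 2.0.2, Seurat and mm10 but not what each was used for. Annotation, cell calling and doublet removal: not given in the sources used here. No doublet caller was run, but the 3% of cells with the most UMIs were left out in 1 alternative.

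UMIs were summed over cells and scaled to CPM, per 1e6 UMIs. Ratios are log2 (KO over WT) after adding 1 CPM; their conditional binomial intervals were computed without it, and shares have Clopper-Pearson intervals. Cells were clustered with scanpy 1.11.5 (2000 variable genes without the 5 granzymes, 30 components, 15 neighbours, leidenalg 0.10.2 at resolution 0.8, no integration) and named from marker lists. Markers carried at about the same share in every cluster were ignored, a rule set after the clusters were seen, and a cluster with 2 or more markers of other types among its top 10 genes was not named NK-like. The members and gene lists were chosen with earlier results of these data known. Genes named are the 5 members, the 10 most alike by r, the 10 highest and 10 lowest ratios of rich over 0-UMI cells among genes with at least 100 UMIs there in each library, and members of the lists. Broad and Gzmc-only cells, cells near a limit and a few list members were chosen with their values in view. Ratio, interval and thinning were tested on simulated data.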

Additional observations from a re-analysis of the deposited data

How the results depend on the processing

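These data give no replicate to leave out. No paired analysis was possible because each genotype had 1 library.

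The summed log2 ratio of KO over WT was -1.98. It was -2.08 with at least 1000 genes and at most 5% mitochondrial UMIs per cell, -2.76 without the 10 cells of each library with the most UMIs of the 5 genes, -1.67 without the 3% of cells with the most UMIs and -1.04 in NK-like clusters, which leave out cluster 7. It was -0.94 in cells with fewer than 3 and -2.26 in cells with at least 3 S and G2M genes, -1.50 after thinning and -1.51 as a mean over cells. Chosen after seeing the data, cells under 10 UMIs gave -1.21, clusters that are neither T-like nor ILC-like gave -2.05 and cells outside clusters 7, 8 and 10 gave -1.24. No filter, other added CPM and other totals moved it by less than its counting interval. Each of the 5 genes was below 0 in 15 of 15 alternatives, from -2.43 to -0.65 for Gzmc, -3.56 to -0.58 for Gzmd, -3.80 to -1.0 for Gzme, -2.32 to -0.56 for Gzmf and -4.15 to -0.92 for Gzmg.

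The share of rich cells was 0.538% in KO and 1.33% in WT cells without the 3% deepest cells, 0.491% and 1.82% after thinning, 0.108% and 0.360% in NK-like clusters, and 1.60% and 3.38% with a limit per 10000 UMIs, chosen after seeing the data. The cycling share of rich cells was 37.5% and 60.9% without the 3% deepest cells, 35.5% and 40.2% after thinning and 45.5% and 63.4% when 5 genes were asked. In NK-like clusters it was 100% of 3 KO and 11 WT rich cells. Of these, 2 KO and 10 WT cells lay in cluster 10, which was led by cell cycle genes. Nothing about the cell cycle is therefore read from that share. The count of genes 2-fold lower in the KO library, 76, was 29 in cells with fewer than 3 cycle genes and 132 when 50 UMIs sufficed. No ratio changed sign. Thinned values leave out 418 KO and 92 WT cells as too shallow, and the KO values of Gzmd to Gzmg rest on 4 cells that carry most of their UMIs. The causes were not tested.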

Other observations

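Some pairs of WT cells had almost the same makeup of the 5 genes, noticed after the values were seen. A cell with 86 Gzmc, 34 Gzmd, 21 Gzme, 91 Gzmf and 101 Gzmg among 3331 UMIs differed from a cell with 76, 28, 24, 79 and 90 among 2880 UMIs by 1.77% of the makeup. A pair with almost no Gzmf (201, 198, 98, 3 and 249 among 8080 UMIs, and 194, 184, 87, 6 and 272 among 9085) differed by 3.77%. The median over 465 pairs of the 31 WT broad cells with at least 100 UMIs was 38.6%. Over all other genes (Pearson's r of log-transformed counts per 10000) the first pair had r = 0.65, rank 451 of 465, and the second r = 0.76, rank 332, against a median of 0.81 over the 465 pairs. Deeper pairs ranked high. A pair with 26970 and 31206 UMIs, which differed by 2.20% of the makeup, had r = 0.88, rank 39. Another with 46203 and 25133 UMIs, which differed by 5.9%, had r = 0.88, rank 38. Likeness in makeup thus went with either low or high likeness in the other genes. The barcodes of the first and the second pair had 14 and 11 mismatches, and the closest of all 465 pairs had 6. With 465 pairs some close ones occur, and no test was made.

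Epas1, which encodes HIF-2 alpha, was among the 10 genes most alike to the summed level, with r = 0.15 in KO and 0.26 in WT cells over 3067 and 3555 cells. Myo10, an unconventional myosin gene, had r = 0.18 and 0.28. Il2ra, the high-affinity IL-2 receptor subunit, had r = 0.09 and 0.23. These weak values over sparse counts are given as a description.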
